A study of Mus musculus with 16 samples.

Results

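miR-151 and miR-28a are microRNA hairpins of related origin, and each releases a mature strand from its 5′ arm (5p) and from its 3′ arm (3p). The 4 mature strands, mmu-miR-151-5p, mmu-miR-151-3p, mmu-miR-28a-5p and mmu-miR-28a-3p (mmu for mouse, left out below), were taken by name from a count table of 1915 mature mouse microRNAs. They were measured in extracellular vesicles (EVs) captured with an antibody to the HA tag from the bone marrow plasma of C57BL/6N mice, 6 months old, that all carried the CAGS-Snorkel reporter. In 6 mice (3 male, 3 female) the second allele was Ocn-Cre, under the osteocalcin promoter, which works in mature osteoblasts and osteocytes. In 10 mice (5 male, 5 female) it was Prx1-Cre, which is active in limb mesenchyme and its descendants. These groups are called Ocn and Prx1, with 1 library per mouse. Libraries from mice without Cre were not analysed here, so no background stands beside the values.

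A microRNA guides an Argonaute protein to messenger RNAs mainly through its seed, bases 2 to 8 from the 5′ end. Both hairpins derive from LINE-2, an old retrotransposon family, and their 5p strands resemble each other. Each sits in an intron of a gene of cell adhesion: miR-151 in Ptk2, which encodes focal adhesion kinase, and miR-28a in Lpp, which encodes a LIM-domain protein of focal adhesions. In human liver cancer cells miR-151-5p is known to act with focal adhesion kinase on cell migration, and miR-28 is known in human cells as a restraint on the thrombopoietin receptor and in B-cell lymphoma as a growth suppressor. On the mm10 assembly, Mir151 lies on chromosome 15 (73254815 to 73254882, minus strand) in an intron of Ptk2, and Mir28a on chromosome 16 (24827855 to 24827940, plus strand) in an intron of Lpp. Mir708, a relative in an intron of Tenm4, lies on chromosome 7 (96249424 to 96249532, plus strand).

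Mature sequences from RefSeq (build GRCm38.p6) were found for 2 of the 4 strands, those of miR-28a, and for 3 of 4 relatives. They are printed 5′ to 3′ with the seed in capitals, because the seed decides which strands of the family can act on the same sites.
miR-28a-5p: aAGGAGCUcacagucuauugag
miR-708-5p: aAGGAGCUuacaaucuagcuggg
miR-28b: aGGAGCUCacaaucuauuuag
miR-28a-3p: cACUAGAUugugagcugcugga
miR-708-3p: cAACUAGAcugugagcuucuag

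miR-28a-5p and miR-708-5p share the seed AGGAGCU, which no other of the 1679 mature names in that table held. Aligned from the first base without gaps they were identical at 16 of 22 positions, and the first differences, counted from the 5′ end of miR-28a-5p, were C9U and G13A. The mature miR-28b shares a run of 11 bases with miR-28a-5p, but it starts at another base of that run and so has another seed. The 3p strands of miR-28a and miR-708 have different seeds. miR-28a-3p was the only name there with its seed.

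Library totals ran from 582660 to 1536421 in Ocn and from 225273 to 813770 in Prx1, so depth differed with the group (exact permutation test of log10 totals, 2-sided, p = 0.00112). Values per library are CPM, the counts scaled to the library's total. MicroRNAs of blood cells were abundant in both groups: the 3 myeloid and pan-leukocyte markers summed to 39100 to 94400 CPM in Ocn and 42100 to 69000 CPM in Prx1, and the 4 erythroid markers to 14700 to 27700 CPM in Ocn and 18400 to 27500 CPM in Prx1. The 5 mesenchymal markers summed to 31400 to 43000 CPM in Ocn and 26500 to 35000 CPM in Prx1. The 2 lymphoid markers summed to 961 to 1580 CPM in Ocn and 1480 to 3430 CPM in Prx1, the 2 endothelial markers to 16700 to 20800 CPM in Ocn and 12900 to 19300 CPM in Prx1, and the 2 chondrocyte markers to 5270 to 6790 CPM in Ocn and 3670 to 11300 CPM in Prx1. The 3 muscle markers were abundant too, at 46700 to 77300 CPM in Ocn and 39800 to 70700 CPM in Prx1. The liver marker miR-122-5p lay at or under 23.5 CPM in Ocn and reached 1640 CPM in library Prx1 5. The part of these other cell types in the results was not tested, and in captured vesicles a different number of vesicles from a cell type and a different load per vesicle cannot be told apart.

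The 3p strand was the abundant one in both hairpins, whereas in the related miR-708 it was the 5p strand. miR-151-3p averaged 481 ± 55.1 CPM in Ocn and 611 ± 122 CPM in Prx1 (SD, n = 6 and 10, as throughout). miR-151-5p averaged 118 ± 28.4 CPM in Ocn and 87.2 ± 38.9 CPM in Prx1. miR-28a-3p averaged 80.7 ± 7.33 CPM in Ocn and 68.0 ± 20.7 CPM in Prx1. miR-28a-5p was the lowest, at 13.8 ± 7.70 CPM (Ocn) and 7.04 ± 5.41 CPM (Prx1).

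In order of abundance, miR-151-3p lay above miR-708-5p in 16 of 16 libraries, and miR-708-5p above miR-151-5p in 15 of 16. miR-151-5p and miR-28a-3p were neighbours that did not keep their order: miR-151-5p was higher in 6 of 6 Ocn libraries but in 5 of 10 Prx1 libraries. miR-28a-3p lay above miR-708-3p in all 16. Adaptor ligation depends on the sequence, so this order of different strands is one of counts in this assay. It may not be the order of the molecules in the vesicles.

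miR-151-3p stood between rank 68 and rank 95 of the table in every library. Its lowest, median and highest values were 385, 487 and 541 CPM in Ocn, and 458, 575 and 823 CPM in Prx1. The ranges overlapped: 8 of 10 Prx1 libraries lay above the highest Ocn library, and only Prx1 3 and Prx1 5 lay within the Ocn range. The highest Prx1 libraries were Prx1 10 with 823 CPM, Prx1 1 with 770 CPM and Prx1 8 with 712 CPM.

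miR-151-5p, the strand with a reported role in cell migration, had 98.9, 97.7, 168, 111, 135 and 98.4 CPM in Ocn 1 to Ocn 6. In Prx1 1 to Prx1 10 it had 85.9, 77.4, 60.8, 150.9, 130, 56.8, 142, 58.7, 54.1 and 54.7 CPM. The Prx1 libraries were uneven: Prx1 4, Prx1 5 and Prx1 7 lay inside the Ocn range, and the other 7 lay below the lowest Ocn library. The labels give nothing that sets these 3 libraries apart. Prx1 4 was the shallowest library of all, with 34 counts of miR-151-5p. Prx1 5 held 44 counts of it in a total of 337645, and Prx1 7 held 56 counts in a total of 393507, both near the middle of the Prx1 totals.

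miR-28a-3p had 73.0, 80.1, 85.8, 78.0, 74.8 and 92.6 CPM in Ocn 1 to Ocn 6. In Prx1 1 to Prx1 10 it had 98.6, 47.6, 55.7, 62.1, 38.5, 78.1, 53.4, 97.2, 63.9 and 84.7 CPM. The Ocn libraries were close together and the Prx1 libraries were not: 6 lay below the lowest Ocn library, 2 inside the Ocn range and 2 above it. The coefficient of variation was 9.08% in Ocn and 30.5% in Prx1, on counts of 45 to 115 in Ocn and of 13 to 58 in Prx1, which carry more counting error.

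miR-28a-5p rested on 7 to 17 counts per library in Ocn and 0 to 9 in Prx1. Its lowest, median and highest values were 7.81, 11.4 and 29.2 CPM in Ocn, and 0, 6.07 and 17.8 CPM in Prx1. Ocn 3 held the highest value, and in Prx1 10 no count was found, which allows a level of up to 8.20 CPM for counting error alone. In 6 of 10 Prx1 libraries it lay below the lowest Ocn library, and 4 lay within the Ocn range. Those 6 held 0 to 3 counts each, where 3 counts stand for 5.03 to 10.7 CPM, so their place below Ocn is uncertain.

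**Figure D1:**
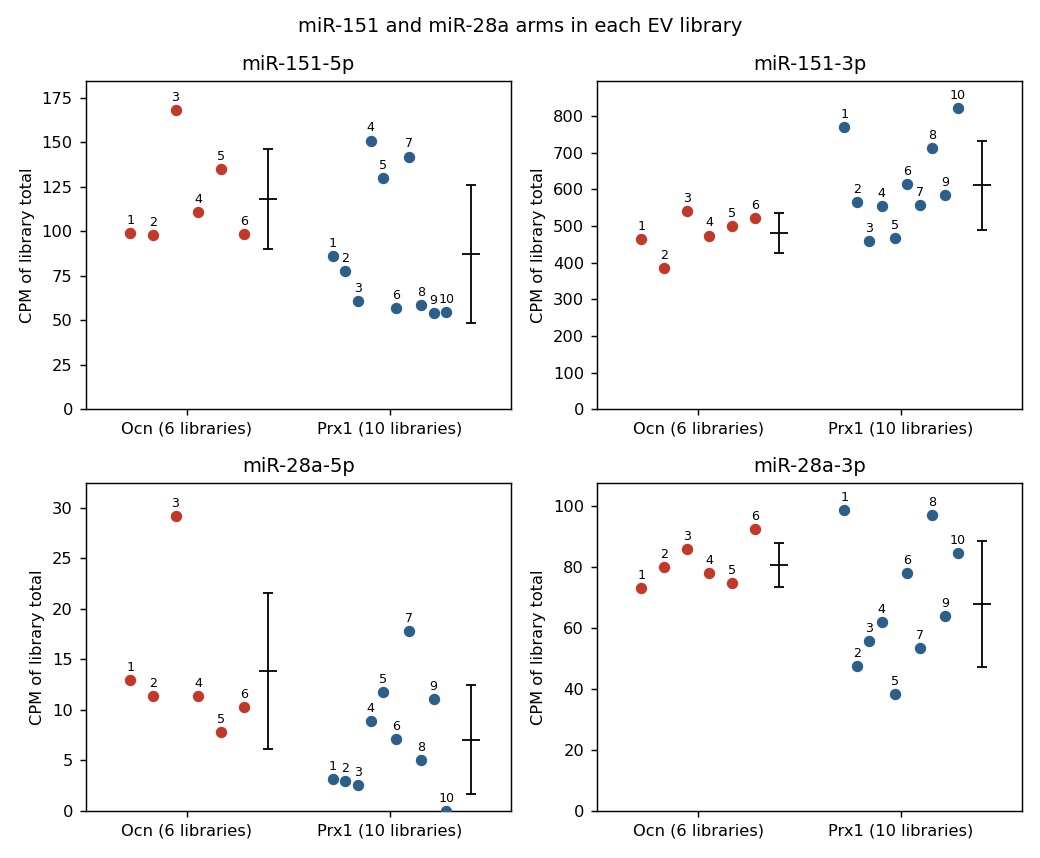
CPM of the library total (vertical axis) for the 4 strands, with 1 numbered point per library (Ocn left, Prx1 right) and the mean ± SD as a black bar. miR-151-5p is split among the Prx1 libraries, with Prx1 4, Prx1 5 and Prx1 7 at 130 to 150.9 CPM, and miR-151-3p is above the highest Ocn value of 541 CPM in 8 of 10 Prx1 libraries.

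The first comparison asked whether the strands differed between Ocn vesicles and Prx1 vesicles. Of the 4 strands 3 passed the low-count filter, and 0 of these 3 passed an adjusted p of 0.05 with edgeR's quasi-likelihood test, against 13.7% of all 234 microRNAs tested (32 entries). At an unadjusted p under 0.05 the count was 1 of 3, against 26.5% of all tested, and the adjusted threshold was passed by 1 of 3 with DESeq2 and 1 of 3 with limma voom, in each tool miR-151-3p, against 17.9% of all tested with DESeq2 and 20.5% with voom. The groups overlapped for each of the 4 strands, while 3.85% of all tested entries had groups that did not overlap.

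miR-151-3p was lower in Ocn by a log2 fold change of -0.38 (SE 0.14), or 0.767-fold, with an edgeR adjusted p of 0.0674, and all 6 Ocn libraries lay below the Prx1 mean. The result depends on the setting: the adjusted p was 0.0498 with DESeq2, 0.0383 with voom and 0.0313 with edgeR when Prx1 3 was left out. Prx1 3 has the lowest miR-151-3p in Prx1 (458 CPM), so leaving it out widens the difference by construction. With edgeR the adjusted p was 0.225 under upper quartile scaling and 0.323 without a low-count filter. With log10 depth as a covariate the log2 fold change was -0.35 (SE 0.21, edgeR adjusted p = 0.397). With 1 library left out the edgeR adjusted p reached up to 0.204. A fit with the replicate number as a block used only libraries 1 to 6 of both groups, so Prx1 7 to Prx1 10 were left out. In it the log2 fold change of miR-151-3p was -0.23 (SE 0.16, edgeR adjusted p = 0.351).

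The other arm of the same hairpin had the opposite sign. For miR-151-5p the log2 fold change was 0.43 (SE 0.23; 95% interval -0.02 to 0.88), with an edgeR adjusted p of 0.229, and all 6 Ocn libraries lay above the Prx1 mean. In a fit with log10 depth as a covariate the log2 fold change was 0.89 (SE 0.35, edgeR adjusted p = 0.191). Without Prx1 4, Prx1 5 or Prx1 7, each in turn, it was 0.53, 0.50 and 0.54, with edgeR adjusted p of 0.129, 0.188 and 0.117. Leaving out a high Prx1 library raises this difference by construction.

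For miR-28a-3p the log2 fold change was 0.20 (SE 0.19; 95% interval -0.17 to 0.58), with an edgeR adjusted p of 0.541. It was 0.42 (SE 0.25, edgeR adjusted p = 0.281) at equal depth, in a single random thinning of the counts. With the replicate block on libraries 1 to 6 of both groups it was 0.40 (SE 0.22, edgeR adjusted p = 0.273). miR-28a-5p was below the filter. Without a filter, where 2.77% of 973 entries were called, its log2 fold change was 0.87 (SE 0.41; 95% interval 0.06 to 1.68) and its edgeR adjusted p was 0.267 (unadjusted 0.0351).

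Of the 4 relatives, 2 were tested and 0 passed with edgeR, at an adjusted p of 0.05 or at an unadjusted one. miR-708-5p, the seed partner of miR-28a-5p, averaged 189 ± 53.2 CPM in Ocn and 202 ± 46.4 CPM in Prx1 (log2 fold change -0.11, SE 0.19, edgeR adjusted p = 0.744). miR-708-3p averaged 17.1 ± 7.92 CPM in Ocn and 22.0 ± 9.08 CPM in Prx1 (log2 fold change -0.37, SE 0.30, edgeR adjusted p = 0.455). miR-28b had no count in any library, which allows 1.95 to 5.15 CPM in the Ocn libraries and 3.69 to 13.3 CPM in the Prx1 libraries, and miR-28c had 1 count in Ocn 2. Whether the 5p strands of the family shared reads was not tested.

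Of the counts with the seed AGGAGCU most were of miR-708-5p, with the limit that ligation may favour either strand. miR-28a-5p and miR-708-5p together held 202 ± 48.6 CPM in Ocn and 209 ± 46.8 CPM in Prx1. miR-28a-5p made up 7.67% ± 6.16 of these counts in Ocn and 3.49% ± 2.97 in Prx1.

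**Figure D2:**
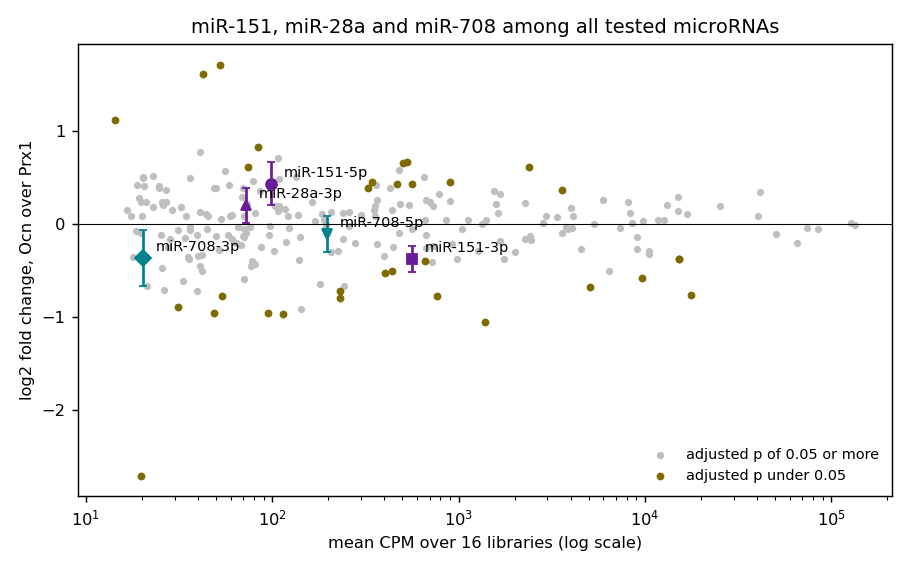
Log2 fold change of Ocn over Prx1 (vertical axis) against mean CPM over 16 libraries (horizontal axis, log scale) for 234 tested microRNAs, with the called ones in dark yellow. The tested arms of miR-151 and miR-28a (purple) and of miR-708 (blue-green) carry bars of 1 SE, with miR-151-5p at 0.43 and miR-151-3p at -0.38, and none of these 5 is called.

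The second comparison asked whether a hairpin's arms kept the same ratio in both groups, a measure that needs no scaling between libraries. For miR-151 the 5p to 3p ratio was 0.213, 0.254, 0.311, 0.235, 0.271 and 0.189 in Ocn 1 to Ocn 6. In Prx1 1 to Prx1 10 it was 0.112, 0.137, 0.133, 0.272, 0.278, 0.0925, 0.256, 0.0824, 0.0926 and 0.0664. As with the level of miR-151-5p, Prx1 4, Prx1 5 and Prx1 7 were high and within the Ocn range, and the other 7 lay below every Ocn library.

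The miR-151 ratio averaged 0.245 ± 0.0433 in Ocn and 0.152 ± 0.0834 in Prx1. On the log2 scale, with 0.5 added to each count, it was higher in Ocn by 0.84 (SE 0.30), or 1.79-fold, with a limma adjusted p of 0.103 over 44 hairpins with both arms tested, of which 6.82% were called. miR-151 was the fifth of the 44 by p-value (unadjusted p = 0.0117, limma), where 18.2% of the hairpins had an unadjusted p under 0.05. An exact permutation of this ratio alone, which carries no adjustment over hairpins, gave p = 0.0240. Left out one at a time, Prx1 4, Prx1 5 and Prx1 7 each brought the limma adjusted p under 0.05 (0.0326, 0.0433 and 0.0453). These have the highest ratios in Prx1, so leaving one out widens the difference by construction. With any other library left out the limma adjusted p was 0.0734 to 0.188. Among 125 hairpins with at least 1 count per arm in at least 6 libraries it was 0.263. In a fit with log10 depth as a covariate the difference was 1.27 (SE 0.45, limma adjusted p = 0.141).

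The 5p share of miR-151 counts was 21.4% in Prx1 4 (95% exact Clopper-Pearson interval 15.3% to 28.6%), 21.8% in Prx1 5 (16.3% to 28.1%) and 20.4% in Prx1 7 (15.8% to 25.6%). The other 7 Prx1 libraries had lower shares, the lowest with 6.23% in Prx1 10 (3.85% to 9.46%). The intervals of Prx1 2 (8.02% to 17.1%) and Prx1 3 (7.65% to 16.9%) overlap those of Prx1 4, Prx1 5 and Prx1 7. These intervals cover counting error only, with each count taken as independent. The SD of the log2 ratio was 0.25 in Ocn, where the median over 44 hairpins was 0.39, and 0.75 in Prx1, where that median was 0.53.

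For miR-28a the ratio ran from 0.104 to 0.340 in Ocn, with a median of 0.145, and from 0 to 0.333 in Prx1, with a median of 0.0767. Of the 10 Prx1 libraries 6 lay below the lowest Ocn library. The highest ratios in Prx1 were those of Prx1 7 (0.333) and Prx1 5 (0.308), followed by Prx1 9 (0.173) and Prx1 4 (0.143). The same 3 libraries that were high for miR-151 were thus among the 4 highest for miR-28a, on 2 to 7 counts of the 5p strand each. In a set of 125 hairpins with at least 1 count per arm in at least 6 libraries, of which 4.80% were called, the log2 ratio differed by 0.69 (SE 0.56; 95% interval -0.40 to 1.78), with a limma adjusted p of 0.485. With 5 counts added to each arm it was -0.23 (SE 0.30), with 0.1 added 1.08 (SE 0.79), and without Prx1 10 it was 0.39 (SE 0.46), so its size and sign depend on how the low 5p counts are treated.

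In miR-708 the arms stood the other way round. Its 5p to 3p ratio was 12.8 ± 6.03 in Ocn and 10.2 ± 3.17 in Prx1, with a log2 difference of 0.30 (SE 0.26, limma adjusted p = 0.426 over 44 hairpins).

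**Figure D3:**
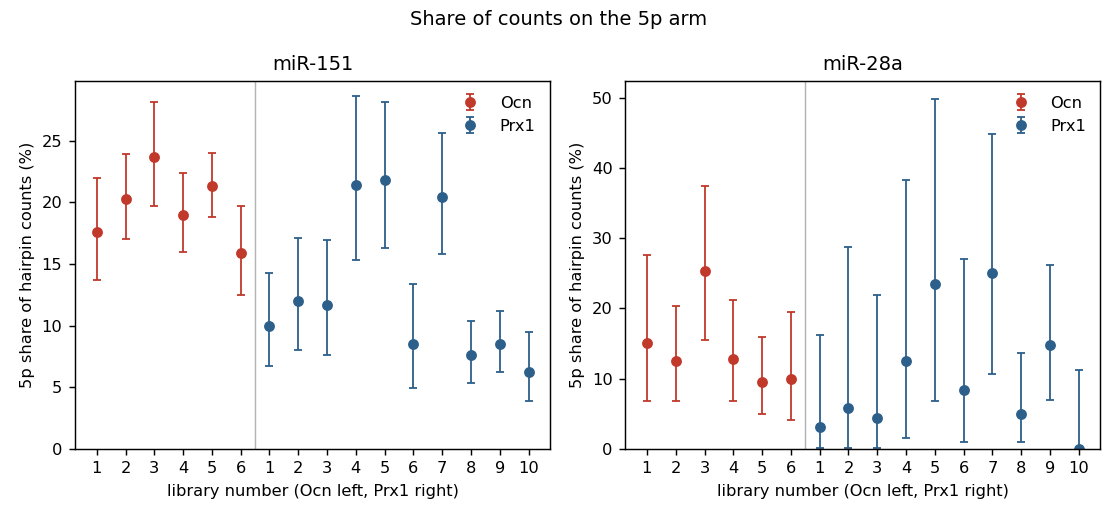
Share of a hairpin's counts on the 5p arm in percent (vertical axis) for each numbered library, Ocn left of the line and Prx1 right of it, with 95% Clopper-Pearson intervals as bars. For miR-151, Prx1 4, Prx1 5 and Prx1 7 sit at 20.4% to 21.8% among Ocn libraries at 15.9% to 23.7%, while the intervals of miR-28a are wide.

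The third comparison set the hairpins against each other within each library, arms summed. In Ocn 1 to Ocn 6 miR-151 had 6.55, 5.27, 6.16, 6.54, 7.69 and 6.03 times the counts of miR-28a. In Prx1 1 to Prx1 10 the fold was 8.41, 12.7, 8.91, 9.94, 11.9, 7.88, 9.82, 7.54, 8.51 and 10.4. The groups met at 1 point only, where Ocn 5 with 7.69 lay above Prx1 8 with 7.54.

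On the log2 scale the ratio of miR-151 to miR-28a was 2.66 ± 0.18 in Ocn and 3.22 ± 0.24 in Prx1. The difference of -0.56, or 0.677-fold in Ocn, was larger than the spread between libraries (exact permutation test over 8008 splits, 2-sided, p = 0.000375, unadjusted, 1 of 4 such tests on ratios). As background, of the 7750 pairs among the 125 hairpins with at least 1 count per arm in at least 6 libraries, 25.2% had an unadjusted p under 0.05 for the ratio of their totals, and 2.49% had a p at or under 0.000375. These pairs share hairpins and libraries. It was -0.50 (SE 0.18) in a linear fit with log10 depth as a covariate, chosen after seeing the data. No strand alone passed the edgeR threshold. The log2 fold changes of the 3p strands, which hold most counts of their hairpins, were -0.38 for miR-151-3p and 0.20 for miR-28a-3p, as given above.

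For the abundant 3p arms alone the ratio is given as a description, chosen after the values were seen. The counts of miR-151-3p were 4.80 to 6.68 times those of miR-28a-3p in Ocn (median 6.19) and 7.33 to 12.2 times in Prx1 (median 9.03), so these groups did not overlap. Of the 27261 pairs of tested microRNAs, 1.69% had ratios, with 0.5 added to each count, that did not overlap between the groups.

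**Figure D4:**
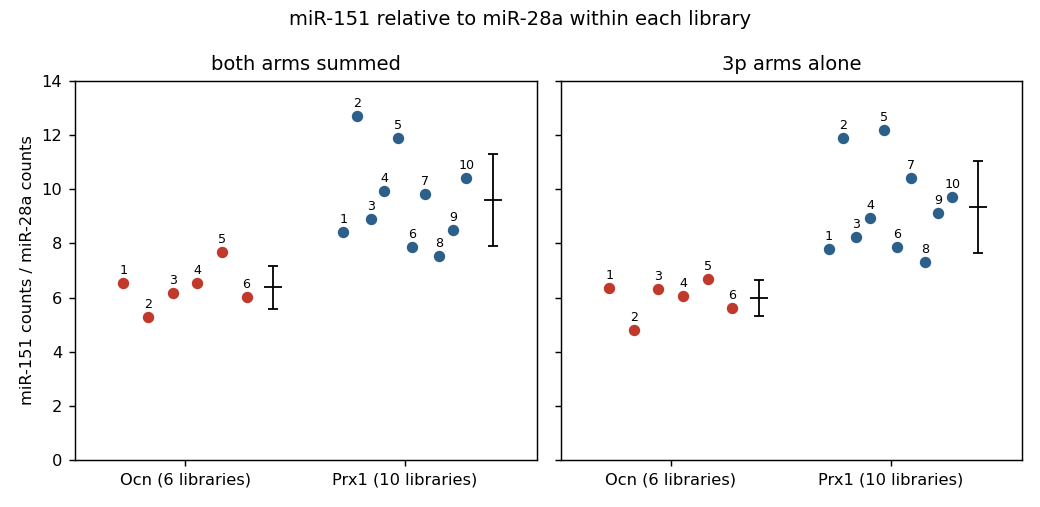
Counts of miR-151 divided by counts of miR-28a (vertical axis) in each numbered library, for both arms summed (left panel) and for the 3p arms alone (right panel), with Ocn left of Prx1 and the mean ± SD as a black bar. The 3p ratio is 4.80 to 6.68 in Ocn and 7.33 to 12.2 in Prx1.

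The levels of the strands were also compared with each other across the libraries of 1 group. Of 12 relations computed on log2 TMM-scaled CPM (6 pairs of strands in each group), 1 passed adjustment over these 12. It was that of miR-151-3p with miR-28a-3p in Prx1, with Pearson's r of 0.87 (permutation p = 0.00154, adjusted p = 0.0185, n = 10) and Spearman's rho of 0.88 (permutation p = 0.00158, adjusted p = 0.0190). Without the 2 libraries farthest from the median of miR-151-3p, r was 0.83. In Ocn the same pair had r of 0.57 and rho of 0.60 (exact permutation p = 0.211 and 0.242, adjusted p = 0.453 and 0.642, n = 6). Without its 2 farthest libraries r was 0.97, but few libraries remain. The like step moved r of the 5p strands in Ocn from 0.58 to -0.56, so trimmed values in Ocn are unstable. Over all 16 libraries the r of this 3p pair was 0.44, and neither strand was among the 3 nearest microRNAs of the other. The share of all pairs of microRNAs with as high an r within Prx1 was not computed, so the relation may not be particular to this pair. Both levels are shares of the same library total, and depth differs among these libraries.

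The arms of a single hairpin showed no relation past the threshold in either group, and the sign for miR-151 differed between the groups. Those of miR-151 had r of 0.40 and rho of 0.49 in Ocn (n = 6), and those of miR-28a had r of 0.16 and rho of -0.03 there. In Prx1 miR-151-5p and miR-151-3p had r of -0.32 and rho of -0.41 (permutation p = 0.363 and 0.248, adjusted p = 0.529 and 0.642, n = 10), and miR-28a-5p and miR-28a-3p had r of -0.40 and rho of -0.28 (permutation p = 0.255 and 0.427, adjusted p = 0.453 and 0.642). The 5p strands of the hairpins had r of 0.60 and rho of 0.44 in Prx1 (permutation p = 0.0697 and 0.202, adjusted p = 0.418 and 0.642), and r of 0.37 without the 2 farthest libraries. No test compared these correlations with each other.

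**Figure D5:**
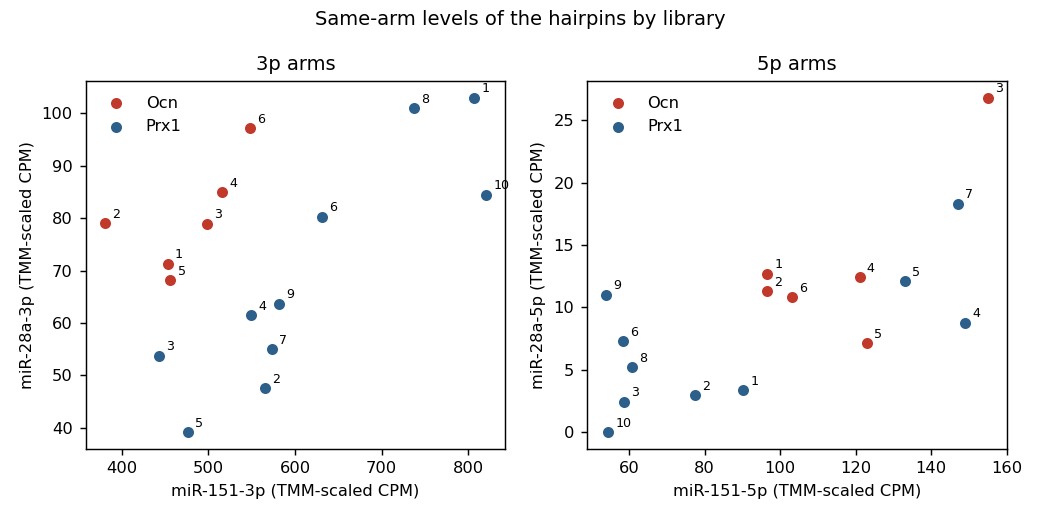
TMM-scaled CPM of the miR-28a strand (vertical axes) against the miR-151 strand (horizontal axes), 3p arms left and 5p arms right, with 1 numbered point per library in red for Ocn and blue for Prx1. The 3p arms line up among the Prx1 libraries (r of 0.87), and Ocn points lie above them at like levels of miR-151-3p.

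Over all 16 libraries, the microRNA nearest in pattern was the same for both 5p strands, miR-140-5p, a microRNA of cartilage. Its r was 0.80 with miR-151-5p (0.75 with group means removed) and 0.82 with miR-28a-5p (0.75 with group means removed), as a description over 16 libraries among 233 and 234 candidates. miR-140-5p averaged 811 CPM in Ocn and 557 CPM in Prx1 (log2 fold change 0.50, edgeR adjusted p = 0.116), and in Prx1 it was highest in Prx1 4, Prx1 7 and Prx1 5, with 946, 793 and 737 CPM. The other arm of that hairpin, miR-140-3p, was the more abundant and had the opposite signs: it averaged 5160 ± 555 CPM in Ocn and 7210 ± 2330 CPM in Prx1 (log2 fold change -0.51, SE 0.19, edgeR adjusted p = 0.0788), with r of -0.43 with miR-151-5p and -0.47 with miR-28a-5p. Of the same 3 Prx1 libraries, Prx1 7 held the lowest miR-140-3p of all 16, with 2880 CPM, and also the lowest sum of both arms, the chondrocyte markers, while Prx1 4 and Prx1 5 had 9030 and 7820 CPM of miR-140-3p. The erythroid miR-144-3p was among the 3 nearest of both 5p strands too, with r of 0.74 for miR-151-5p and 0.68 for miR-28a-5p. The third was miR-17-5p of the Mir17 cluster for miR-151-5p (0.73) and the mesenchymal miR-199a-5p for miR-28a-5p (0.73). Prx1 4, Prx1 5 and Prx1 7 were also the highest Prx1 libraries for miR-17-5p (1460, 1170 and 1010 CPM) and miR-144-3p (688, 575 and 447 CPM). For miR-199a-5p Prx1 4 and Prx1 5 were highest, and Prx1 3 (532 CPM) lay just above Prx1 7 (531 CPM). These microRNAs were picked for their correlation with the 5p strands, so their high values in the same libraries follow in part from that choice. What sets these libraries apart was not tested.

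The 3p strands had other neighbours. For miR-151-3p these were miR-434-3p (r of 0.67), miR-18a-3p (0.65) and miR-1198-5p (0.64), of which the last pair were called lower in Ocn (edgeR adjusted p = 0.00125 and 0.0125) and had r of 0.36 each with group means removed. For miR-28a-3p they were miR-199b-3p and miR-199a-3p (0.56 each), mesenchymal strands whose reads may be shared, and miR-190a-5p (0.54). All levels share the library total and its depth.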

How the data were processed

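The deposited values are raw, whole-number counts, 1 row per mature microRNA and 1 column per library. Per the labels' protocols, the QIAseq miRNA kit was used on 1 ng of RNA per library. The submitters' processing notes name cutadapt 1.18 and the build mm10. Not given in the sources used here are the aligner, the counter, the annotation and the use of molecular identifiers. The Clopper-Pearson intervals take each count as independent, so they may be too narrow if copies of a molecule were counted. The same holds for the levels allowed where no count was found. Of 60 same-group pairs of libraries, the most alike pair differed by 5.04 in chi-square per degree of freedom, above sampling noise.

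Groups follow the genotype, and sex per library is not given. Entries passing filterByExpr (234, at least 99.7% of each library's counts) were tested with edgeR 4.0.16 in R 4.3.3 (TMM, robust quasi-likelihood F test, Benjamini-Hochberg, threshold 0.05). The SE is the log2 fold change divided by the square root of F, and 95% intervals are 1.96 SE. Arm ratios used limma 3.58.1, and single values exact permutation tests; relations within Prx1 used 100000 permutations and those within Ocn all. Tests were tried on simulated data. Alternatives were DESeq2 1.42.0, voom, other scalings, filters and pseudocounts, thinning to 225273 counts, a depth covariate, a replicate block and each library left out. The thinning was a single random draw, so values at equal depth include the noise of that draw. The replicate block used libraries 1 to 6 of both groups only.

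The strands and lists were chosen with earlier results of these data known. Named microRNAs are the 4 strands, miR-28b, miR-28c and miR-708, and the 3 nearest of each strand by Pearson correlation of log2 CPM with a prior count of 2.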

Additional observations from a re-analysis of the deposited data

Results flagged for a closer look

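Among 18 sets of libraries checked for a value far from the rest, 1 stood apart, where chance gives about 1 in 20. In Ocn, miR-28a-5p had 29.2 CPM in Ocn 3, on 17 counts, while the next highest Ocn library had 13.0 CPM. Without Ocn 3 the log2 fold change of miR-28a-5p was 0.59 (edgeR adjusted p = 0.498).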

How the results depend on the processing

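Under 10 other settings (9 for miR-28a-5p) and with each of 16 libraries left out, the log2 fold changes of the 4 strands kept their sign. With a library left out they ran from 0.35 to 0.54 for miR-151-5p, -0.45 to -0.28 for miR-151-3p, 0.59 to 1.10 for miR-28a-5p and 0.13 to 0.36 for miR-28a-3p. miR-151-3p passed in 2 of the 10 other settings, DESeq2 (-0.39) and voom (-0.38). It also passed in 1 of 16 fits with a library left out, that without Prx1 3, the Prx1 library where it was lowest. Its adjusted p was highest, at 0.397 with edgeR, under the depth covariate. The miR-151 arm ratio ran from 0.73 to 0.96 with a library left out and passed by exact permutation (0.84), which adjusts over no other hairpin. The miR-28a arm ratio ran from 0.39 to 0.89 and turned to -0.23 with 5 counts added; the cause was not tested. The miR-151 to miR-28a ratio ran from -0.62 to -0.51. It was -0.81 at equal depth, in a single random thinning (exact permutation p = 0.000125, the smallest possible).

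Over all entries 32 were called (14 higher and 18 lower in Ocn), 20 (7 higher) after thinning, with fewer entries tested, and 0 (0 and 0) with the depth covariate, where 40 had an unadjusted p under 0.05. voom called 24 higher, and upper quartile scaling, which moved the median log2 fold change by 0.12, 26 higher and 11 lower. With a library left out the counts were 24 to 36 in all, 8 to 20 higher (8 without Prx1 2, 9 without Prx1 1 or Prx1 3) and 13 to 20 lower. Same-numbered libraries share only a number: their correlations were 0.02 to 0.20, 3 of 6 were over 0.1, and 1 of 6 was best with its own number. The replicate block, on libraries 1 to 6 of both groups, gave 27 calls, none of the 4 strands. Its miR-151 to miR-28a difference was -0.61 (exact sign-flip p = 0.0312, the smallest that 6 pairs allow).

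Depth limits miR-28a-5p most, with 0 to 17 counts per library.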
